A study of Mus musculus with 6 samples.

Results

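ATP-binding cassette (ABC) genes were compared between cultured mouse astrocytes given tumour necrosis factor (TNF) and control cultures. Members were all genes with a symbol made of Abca, Abcb, Abcc, Abcd, Abce, Abcf or Abcg and a digit, and 48 of the 19926 genes tested met this rule. Primary astrocytes of the C57BL/6J strain were exposed for 24 h to 50 ng/mL of TNF, a cytokine of inflammation, and the other cultures are labelled only as control. Each group comprised 3 samples numbered 1 to 3, with 1 Affymetrix Mouse Gene 1.0 ST array per sample, and no other allele, agent or time was part of the comparison. Values are log2 signals, and every difference is TNF minus control.

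ABC proteins bind and hydrolyse ATP through a conserved nucleotide-binding fold, and most of them use it to move lipids, peptides, drugs or metabolites across a membrane. Families A to D and G hold membrane transporters and a few channel regulators. Families E and F have no membrane-spanning part and act in translation, so Abce1, Abcf1, Abcf2 and Abcf3 are relatives of the transporters in sequence only. In the brain, astrocytes export cholesterol to apolipoprotein E through ABC proteins, while endothelial cells of the blood-brain barrier use others to expel drugs.

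With limma at an adjusted p under 0.05, 3 of 48 members rose with TNF (6.25%, against 3.87% of all genes tested) and 4 fell (8.33%, against 3.33%). Abcc12 rose 2.55-fold, Abcf2 1.46-fold and Abca2 1.42-fold. Abca8a, whose TNF values may lie near background, fell 4.16-fold, Abca9 2.1-fold, Abca8b 2.02-fold and Abca5 1.76-fold, and these 4 genes stand side by side on chromosome 11 with Abca6 among them. The median difference over the 48 members was 0.001, against -0.003 over all genes tested.

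The samples pair by replicate number, and a fit with that number as a block called more genes. With the block 11 members were higher (22.9%, against 9.73% of all genes) and 5 lower (10.4%, against 11.8%). These included all 7 genes called without it. The added members were Abcb1b, Abcd2, Abcg1, Abcb1a, Abca7, Abcc4, Abcf3 and Abcc1 among the higher and Abcd3 among the lower. Groups did not overlap in 10 members with TNF above (20.8%, against 12.3% of all genes) and in 6 with TNF below (12.5%, against 11.7%). The members called lower without the block, Abca5, Abca8a, Abca8b and Abca9, all lie in the group around Abca6. That limma without the block called 0 of the 43 members outside this group lower follows from their removal. Among those 43, 1 member, Abcd3, was lower at a limma unadjusted p under 0.05. Of the 19926 genes tested 1938 were lower at that level. As the group was chosen with earlier results known, neither count can be judged against the share among all genes. With the block limma called Abcd3.

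**Figure D1:**
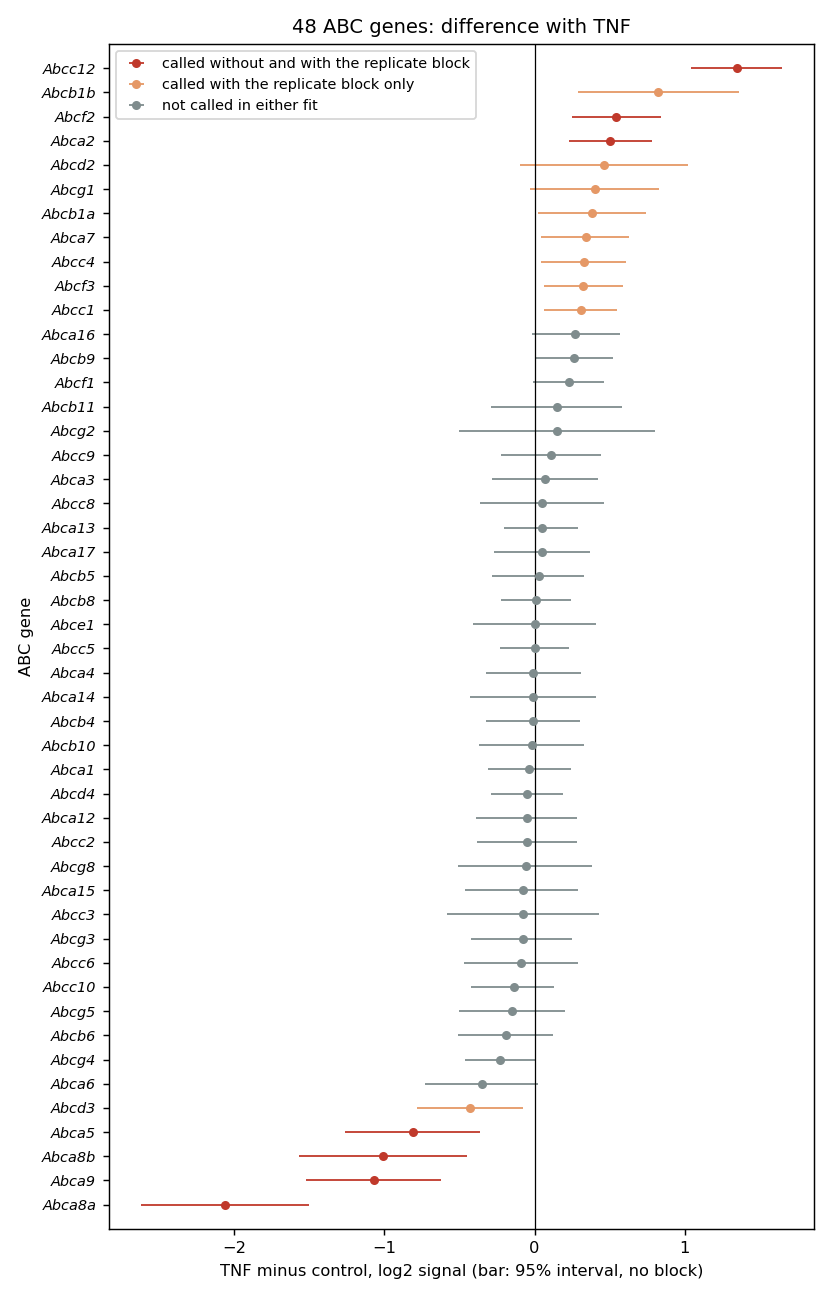
Log2 difference (TNF minus control, x axis) of each of the 48 ABC genes (y axis, sorted), with 95% intervals from the unblocked limma fit; n = 3 arrays per group. Colours mark genes called in both fits, with the replicate block only, or in neither. Abca8a at -2.06 and Abcc12 at 1.35 lie farthest from 0, and the 11 higher and 5 lower genes called with the block are coloured.

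Some facts of the arrays bear on these values. The 10 astrocyte markers had list means of 11.02 to 11.32 on the control arrays and 10.64 to 10.91 with TNF. Without the block 3 of them fell and 0 rose, against 3.33% and 3.87% of all genes tested. With the block 6 were lower and 2, Aqp4 and Slc1a2, higher, against 11.8% and 9.73%. Gfap, Slc1a3, Aqp4 and Glul stood above 11 on every array, Slc1a2 read 9.08 to 9.99, and S100b, at 5.89 to 6.74, was the 1 marker of the list below the median gene. Replicate 3 had a narrower range than the others: over the genes tested, its lower quartiles were 6.27 and 6.33 against 6.01 to 6.09, and its upper quartiles 9.17 and 9.16 against 9.29 to 9.33. Of the 27 members whose mean lay below the median gene (7.63), 21 had their highest control value on control 3 and 22 their highest TNF value on TNF 3; this was true of 57% and 68.5% of all genes that dim. No detection calls were used, so those 27 may lie near background. Nothing in the labels says whether replicates were separate cultures or animals, and the p-values describe the spread between these samples, which could be technical. In RNA of a whole culture, fewer cells of a type and less RNA per cell cannot be told apart.

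The members that fell belong to a single branch of the A family. Abca5, Abca6, Abca8a, Abca8b and Abca9 are full-length transporters of the ABCA6-like type, thought to handle lipids, and lie one after another in the order Abca8b, Abca8a, Abca9, Abca6, Abca5. To show what the start sites of these neighbours hold, the promoter windows of the 4 that fell are printed, from RefSeq (GRCm38.p6), each with 250 bases before and 50 from the annotated start, 5′ to 3′. Capitals mark a GC box, GGGCGG, which reads CCGCCC where it lies on the other strand.
Abca8a (chr11:110095888-110096187, minus strand): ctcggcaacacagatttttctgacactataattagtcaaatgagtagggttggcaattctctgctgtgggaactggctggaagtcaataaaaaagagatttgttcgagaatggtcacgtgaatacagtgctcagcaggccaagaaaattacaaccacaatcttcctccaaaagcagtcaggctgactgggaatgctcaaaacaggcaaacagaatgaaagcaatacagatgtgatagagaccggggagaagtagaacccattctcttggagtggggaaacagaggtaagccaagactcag
Abca9 (chr11:110168104-110168403, minus strand): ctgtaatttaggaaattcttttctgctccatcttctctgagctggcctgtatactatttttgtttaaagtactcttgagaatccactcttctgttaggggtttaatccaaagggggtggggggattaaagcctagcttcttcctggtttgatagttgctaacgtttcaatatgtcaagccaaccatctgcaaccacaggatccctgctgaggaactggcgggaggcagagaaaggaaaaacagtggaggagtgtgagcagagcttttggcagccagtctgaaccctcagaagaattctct
Abca8b (chr11:109995796-109996095, minus strand): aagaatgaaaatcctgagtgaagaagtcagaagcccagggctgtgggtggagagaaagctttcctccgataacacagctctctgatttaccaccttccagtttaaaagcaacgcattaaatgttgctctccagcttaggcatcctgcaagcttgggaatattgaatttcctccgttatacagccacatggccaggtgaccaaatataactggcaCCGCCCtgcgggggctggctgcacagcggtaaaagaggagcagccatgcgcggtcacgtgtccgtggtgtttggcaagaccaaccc
Abca5 (chr11:110337667-110337966, minus strand): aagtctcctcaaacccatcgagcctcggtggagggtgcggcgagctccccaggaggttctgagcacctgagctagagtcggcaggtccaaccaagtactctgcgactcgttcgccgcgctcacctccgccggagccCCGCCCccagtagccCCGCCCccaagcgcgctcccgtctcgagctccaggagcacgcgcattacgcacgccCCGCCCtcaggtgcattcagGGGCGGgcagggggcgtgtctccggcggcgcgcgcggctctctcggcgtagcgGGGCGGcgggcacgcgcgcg

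The windows share little with each other. The longest run of identical bases in any pair of the 4 was 9, and their GC content was 44.3% for Abca8a, 45.3% for Abca9, 51.3% for Abca8b and 72.3% for Abca5, against a median of 52.7% over all windows. Abca5 held 5 GC boxes and Abca8b 1; Abca8a and Abca9 held none. The 8 motifs were searched on both strands in all 32851 windows, with no overlap between different motifs among the matches in the printed ones. The share of windows with a match was 35.7% for GGGCGG, 37.4% for CCAAT, 13.6% for TATAAA, 8.3% for TTCNNNGAA and 7.81% for TGANTCA, with N for any base. It was 3.44% for GAAA and GAAA set 2 bases apart, 0.411% for GGGA, any 1 base and TTTCC, and 0.0152% for AGGTCA repeated after 4 bases. Promoter windows matched 38 of the 48 members (45 windows), of which 21 windows held GGGCGG (46.7%), 16 CCAAT (35.6%), 7 TATAAA (15.6%), 2 TTCNNNGAA (4.44%) and 0 any of the other 4. A match describes letters in a window and not a site in use, and a missing match says only that the letters are absent there.

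Abca8a, a lipid transporter linked to cholesterol efflux, read 8.03, 8.86 and 8.04 on control arrays 1, 2 and 3 and 6.01, 6.48 and 6.27 on the TNF arrays with the same numbers. Every TNF array was at least 1.5 log2 units below every control array, and control 2 was the highest of the 6. On TNF 1 and TNF 3 Abca8a lay about at the lower quartile of the array (6.01 and 6.33), and on TNF 2 above it (6.06). Signal this low may be near background, so the fold on this scale may not be exact. The mean of Abca8a went from 8.31 ± 0.48 to 6.25 ± 0.23 (SD, n = 3 per group), a log2 difference of -2.06 (SE 0.24, 95% interval -2.62 to -1.50, limma adjusted p = 0.00249). Leaving out any single array kept the call (6 fits, limma adjusted p at most 0.0111), as did leaving out replicate 3 in both groups (0.038).

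Its neighbour Abca9, also of the lipid-handling type, read 8.55, 8.55 and 8.08 in controls and 7.45, 7.54 and 6.98 with TNF. The groups did not overlap, and replicate 3 was the lowest in both. The log2 difference was -1.07 (SE 0.19, limma adjusted p = 0.0161), and it was -1.10, -1.01 and -1.10 within replicate numbers 1, 2 and 3. Without control 1 or control 2 the call was lost (highest adjusted p = 0.072).

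Abca8b, the close relative of Abca8a, read 8.31, 9.08 and 8.94 in controls and 7.50, 8.14 and 7.65 with TNF. TNF 2 lay only a little under control 1, so the groups were apart but near each other. The log2 difference was -1.01 (SE 0.24, limma adjusted p = 0.0461), and the call was lost without control 2, control 3, TNF 1 or TNF 3 (highest adjusted p = 0.138), without replicate 3 (0.264) and with array weights (0.0908). Any near-identical stretches of Abca8a and Abca8b could let probes of one bind RNA of the other, and this was not tested.

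Abca5, a transporter of endosomes and lysosomes, read 8.23, 8.68 and 8.04 in controls and 7.74, 7.51 and 7.26 with TNF. All 3 TNF arrays lay below all 3 controls, and the difference within a replicate number ran from -0.49 in number 1 to -1.17 in number 2. The log2 difference was -0.81 (SE 0.19, limma adjusted p = 0.0468). Of the 6 fits that leave out an array, only that lacking control 3 kept the call (0.0482); the other 5 lost it (up to 0.128, without TNF 2), as did the fit without replicate 3 (0.101).

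Abca6, the fifth gene of the row, read 5.54, 6.13 and 5.84 in controls and 5.43, 5.42 and 5.60 with TNF. Its groups overlapped, since TNF 3 was above control 1. The log2 difference of -0.35 (95% interval -0.73 to 0.02) did not pass in either fit (limma adjusted p = 0.297, and 0.0865 with the replicate block), from a signal low enough to lie near background. Over the 5 genes of the row, 4 of which passed, the median difference was -1.01. With the block the adjusted p was 5.43e-05 for Abca8a, 1.32e-04 for Abca9, 7.53e-04 for Abca8b and 0.00424 for Abca5.

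**Figure D2:**
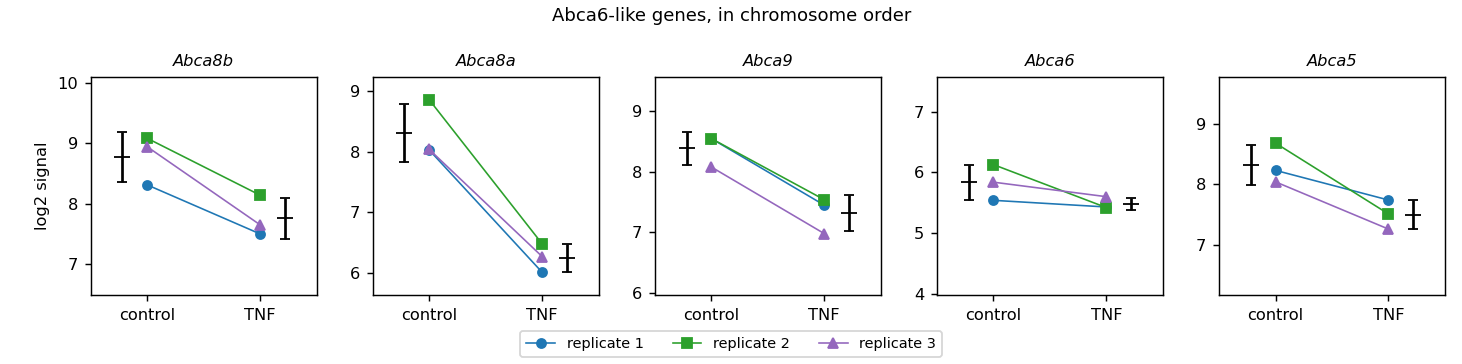
Log2 signal (y axis) on control and TNF arrays for the 5 ABCA6-like genes in chromosome order; lines join arrays with the same replicate number, and black bars give mean ± SD (n = 3). All panels span the same number of log2 units, and the TNF values lie below all controls in every panel except that of Abca6.

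The nearest protein-coding genes on each side, in RefSeq order, were read from the same fit. Map2k6, a kinase that activates p38, comes next after Abca5 and fell by 0.62 on the log2 scale (SE 0.12, limma adjusted p = 0.0242). Beyond it Kcnj16, a potassium channel subunit, read 8.71, 6.94 and 8.05 in controls and 6.57, 5.80 and 6.61 with TNF; its difference of -1.57 (SE 0.43) passed only with the block (adjusted p = 8.77e-04, against 0.0745). Kcnj2, the next gene, differed by -0.05. On the other side 1700012B07Rik differed by 0.05, Fam20a by -0.35 (adjusted p = 0.15, and 0.022 with the block), Prkar1a by -0.12 and Wipi1 by -0.31, and none passed without the block. Map2k6 was thus the only flanking gene of the 7 measured here that was called in both fits.

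**Figure D3:**
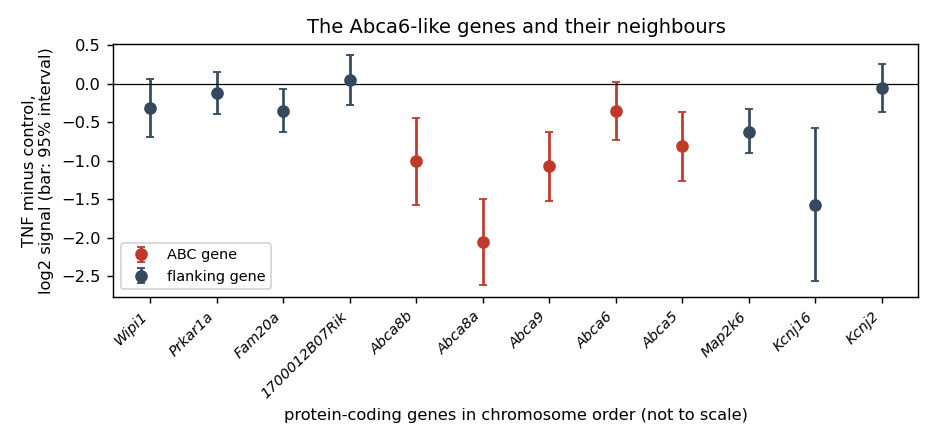
Log2 difference (TNF minus control, y axis) with 95% intervals (limma without block, n = 3 per group) for the 5 ABCA6-like genes and 7 flanking protein-coding genes in chromosome order (x axis, not to scale). The intervals of Abca8b, Abca8a, Abca9, Abca5, Map2k6, Kcnj16 and Fam20a lie below 0.

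Genes of this group are also expressed by fibroblasts, mural cells and oligodendrocytes, so markers of those cells were read beside it. Of 12 fibroblast and mural markers 0 rose and 1, Acta2, fell (2 with the block, which added Pdgfrb); their list means ran from 7.30 to 7.76 in controls and from 7.18 to 7.78 with TNF, with replicate 3 highest in both. Of 9 oligodendrocyte and precursor markers 0 rose and 1, Olig1, fell, with list means of 7.48 to 7.60 and 7.35 to 7.48. Over all genes tested 3.87% rose and 3.33% fell without the block, and 9.73% were higher and 11.8% lower with it. Only 3 of these 9, and 4 of the 12 fibroblast and mural markers, had means above the median gene. The rest may lie near background, where a change could be missed. Dcn, a defining fibroblast marker, was lowest in replicate 1 (5.80 and 6.20) and highest in replicate 3 (8.29 and 7.80) of both groups, and differed by -0.11 (limma adjusted p = 0.982). The part of either cell type in the fall of these genes was not tested.

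Of 10 members outside that row grouped here as lipid transporters, 1 rose without the block, 3 were higher with it and 0 were lower in either fit. Among all genes tested 3.87% rose without the block and 9.73% were higher with it. Abca1, which loads cholesterol and phospholipid onto apolipoproteins, read 11.83, 11.93 and 12.10 in controls and 11.89, 11.85 and 12.01 with TNF. The groups overlapped throughout, and the log2 difference of -0.04 had a 95% interval from -0.31 to 0.24 (limma adjusted p = 0.964). Abca3, which packs surfactant-type lipids into lamellar bodies in lung, read 10.22, 10.14 and 10.51 and then 10.45, 10.12 and 10.51, a difference of 0.07 (interval -0.28 to 0.42).

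Abca2, an endosomal and lysosomal transporter of sterols and sphingolipids known from myelinating cells, read 9.25, 9.22 and 9.25 in controls and 9.85, 9.55 and 9.83 with TNF. The controls were almost equal, and all TNF arrays were above them. The increase was 1.42-fold (0.50 on the log2 scale, SE 0.12, limma adjusted p = 0.0453). Only the fit lacking TNF 2 kept the call among those that leave out an array; it was lost in the other 5 (up to 0.141, without control 1), without replicate 3 (0.168), with quantile normalization (0.0635) and with array weights (0.0505).

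Abcg1, which passes cholesterol to lipoprotein particles, read 7.40, 7.06 and 7.66 in controls and 7.74, 7.56 and 8.02 with TNF. The groups overlapped, but TNF was above control within each replicate number, by 0.34, 0.49 and 0.36. The log2 difference was 0.40 (SE 0.19), with an adjusted p of 0.312 in limma without the block and 0.0121 with it, and it was 0.24 without control 2. Replicate 2 was lowest and replicate 3 highest in both groups. The same order held for the list means of the 14 microglia and macrophage markers. These were 7.14, 6.45 and 7.86 in controls 1, 2 and 3 and 7.49, 6.59 and 7.90 with TNF. Only 5 of the 14 had means above the median gene, and Abcg1 itself lay below it. Of all genes below it, 57% had their highest control value on control 3 and 68.5% their highest TNF value on TNF 3. Of the markers 0 passed without the block and 3 were higher with it, against 9.73% of all genes tested with the block. At a limma unadjusted p under 0.05, 1 was higher and 0 lower, against 1824 and 1938 of the 19926 genes tested. The part of microglia and macrophages in the Abcg1 values was not tested.

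Abca7, a relative of Abca1 involved in phagocytosis and lipid transport, read 7.03, 7.09 and 7.28 and then 7.47, 7.32 and 7.62. TNF lay above every control by a small margin, and the log2 difference of 0.34 (SE 0.13) passed only with the block (limma adjusted p = 0.0259, against 0.194). Abcg4, a sterol exporter of neurons and astrocytes, read 9.28, 9.28 and 9.32 and then 9.10, 8.99 and 9.11. Its TNF arrays were all below its controls, yet the difference of -0.23 (SE 0.10) passed in neither fit (limma adjusted p = 0.28, and 0.0842 with the block).

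The other members of this lipid group differed by -0.05 to 0.05 and were called in neither fit. They were Abca4, the retinoid flippase of photoreceptors, Abca12, a lipid carrier of skin, Abca13, and Abcb4, the phosphatidylcholine flippase of bile. Abcg5 and Abcg8, which form the sterol exporter of liver and gut, differed by -0.15 and -0.06, and Abcb11, the bile salt pump, by 0.15. Abca14, Abca15, Abca16 and Abca17, rodent genes known from testis, ran from -0.08 to 0.27 and were not called. These 11 genes all had a mean below that of the median gene.

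Of 12 members grouped here as exporters of drugs and conjugates 1, Abcc12, rose without the block. With the block 5 were higher, while 0 were lower in either fit. The shares of higher genes among all genes tested were 3.87% without the block and 9.73% with it. By sign alone, 6 of the 12 were above and 6 below 0. Abcc12, a relative of the multidrug resistance proteins whose substrates are not established, read 8.15, 8.33 and 8.53 in controls and 9.67, 9.79 and 9.59 with TNF. Every TNF array exceeded every control by more than 1 log2 unit, and the spread within a group was small. The mean went from 8.34 ± 0.19 to 9.69 ± 0.10 (SD, n = 3), a log2 difference of 1.35 (SE 0.13, 95% interval 1.04 to 1.65, limma adjusted p = 9.08e-04). No single array decided the call (limma adjusted p at most 0.00638 over the 6 fits that leave one out), and it held without replicate 3 (0.00837).

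Abcb1b, 1 of the mouse P-glycoproteins that pump drugs out of cells, read 6.79, 7.44 and 6.98 in controls and 7.80, 8.32 and 7.57 with TNF. The groups did not overlap, and replicate 2 was highest in both. The log2 difference of 0.82 (SE 0.23) was 1.77-fold, with an adjusted p of 0.0824 in limma without the block, 0.00135 with it and 0.0208 with array weights. Abcb1a, the P-glycoprotein of brain endothelium, read 6.12, 6.21 and 6.50 and then 6.44, 6.66 and 6.87. Its groups overlapped by a narrow margin, since TNF 1 was below control 3, and the difference of 0.38 (SE 0.16) passed only with the block (limma adjusted p = 0.014, against 0.241). The pair are closely related genes, so their probe sets may share signal, and this was not tested.

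Abcg2, the breast cancer resistance protein of the blood-brain barrier, read 6.80, 7.29 and 6.27 in controls and 7.13, 7.17 and 6.50 with TNF. Replicate 3 was lowest in both groups, and the log2 difference of 0.15 had a wide interval from -0.50 to 0.80. Beside these barrier transporters, 0 of 11 endothelial markers rose and 3 fell (Slco1a4, Ocln and Kdr), against 3.87% and 3.33% of all genes tested. Their list means were 6.85 to 7.08 in controls and 6.52 to 6.85 with TNF. Only 1 of the 11, Slco1a4 (mean 11.64 in controls and 9.89 with TNF), lay above the median gene. The others may lie near background, so the list does not show that endothelial cells were present. Cldn5, the claudin that defines brain endothelium, was 6.58 ± 0.25 and 6.60 ± 0.37 (SD, n = 3). The part of endothelial cells in these values was not tested.

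Abcc1, which exports glutathione and its conjugates and is the main such route in astrocytes, read 9.62, 9.69 and 9.60 in controls and 9.89, 9.89 and 10.04 with TNF. The groups were apart by 0.2 log2 units. The difference of 0.31 (SE 0.10) passed only with the block (limma adjusted p = 0.0405, against 0.149). Abcc4, which carries cyclic nucleotides and prostaglandins, read 8.42, 8.35 and 8.09 and then 8.68, 8.60 and 8.57. Here too TNF lay above every control, and the difference of 0.33 (SE 0.12) passed only with the block (limma adjusted p = 0.0334, against 0.194).

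Abcc5, an exporter of cyclic nucleotides and other anions, had 9.73 ± 0.01 in controls and 9.73 ± 0.04 with TNF (SD, n = 3), and an interval of the difference from -0.23 to 0.23. Abcc2, Abcc3, Abcc6, Abcc10 and Abcg3 ran from -0.14 to -0.05, all with overlapping groups, and passed in neither fit. The sulphonylurea receptors Abcc8 and Abcc9, regulatory subunits of ATP-sensitive potassium channels, differed by 0.05 and 0.11. Their pore partners Kcnj11 and Kcnj8 differed by -0.15 and -0.11 (limma adjusted p = 0.903 and 0.928). Both receptors and both pore partners had means below the median gene and may lie near background, where a change could be missed. Abcb5, a relative of P-glycoprotein, differed by 0.03.

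**Figure D4:**
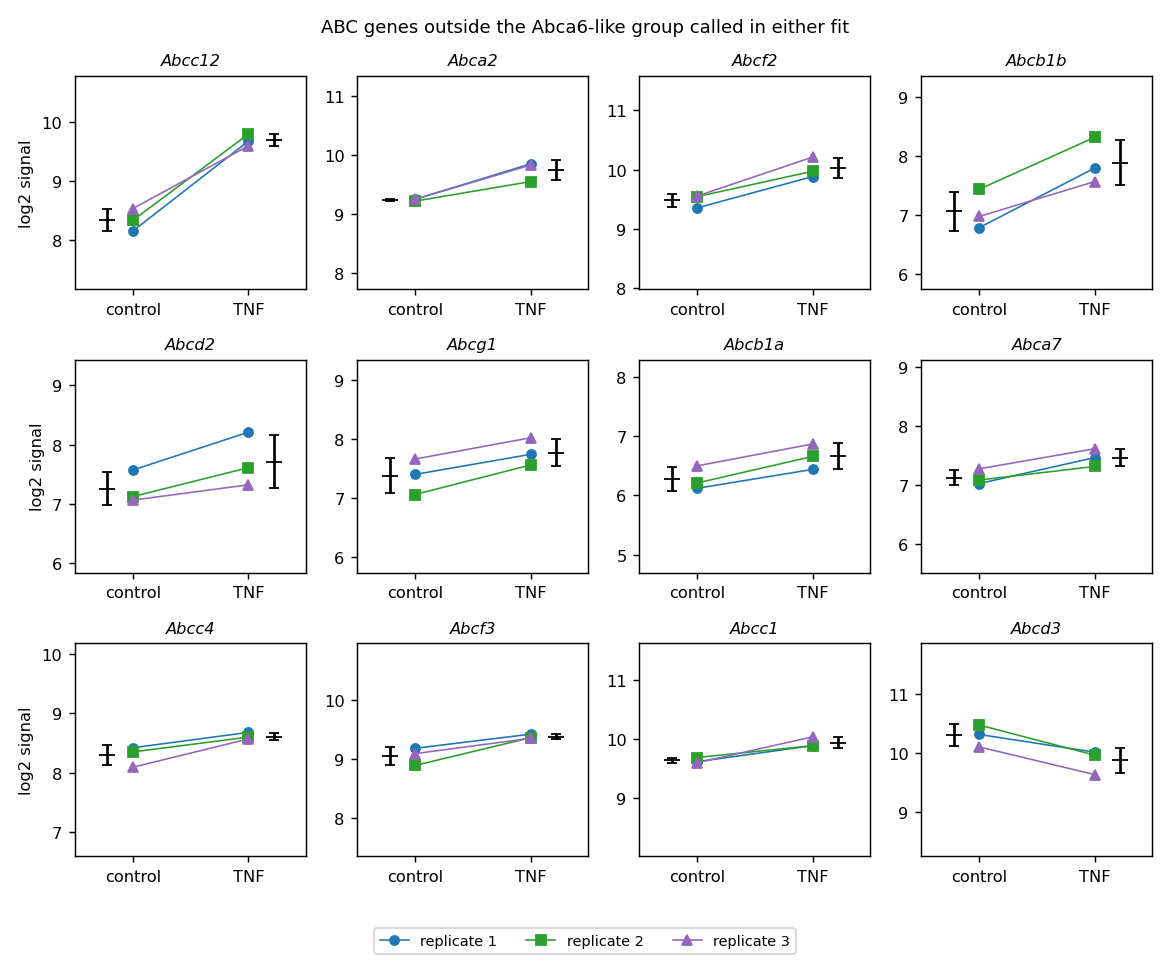
Log2 signal (y axis) on control and TNF arrays for the 12 ABC genes outside the ABCA6-like group that were called in either fit; lines join arrays with the same replicate number, and black bars give mean ± SD (n = 3). All panels span the same number of log2 units; the lines slope upward in 11 panels and downward in that of Abcd3.

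Members inside the cell fell into small groups without a common direction. In peroxisomes, Abcd2, which brings very-long-chain fatty acids in for oxidation, read 7.57, 7.12 and 7.06 in controls and 8.21, 7.61 and 7.32 with TNF. TNF 3 lay below control 1, so the groups overlapped, and the differences within replicate numbers were 0.63, 0.49 and 0.26. The log2 difference of 0.46 (SE 0.24) passed only with the block (limma adjusted p = 0.0132, against 0.384), and it was 0.22 without TNF 1. Abcd3, the abundant peroxisomal membrane protein PMP70, read 10.32, 10.48 and 10.11 and then 10.02, 9.97 and 9.64. All its TNF arrays were below its controls, and the difference of -0.43 (SE 0.15) passed as lower only with the block (limma adjusted p = 0.0102, against 0.161).

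Abcd4, the lysosomal vitamin B12 transporter, differed by -0.05. Of the mitochondrial transporters, Abcb6, a porphyrin carrier, differed by -0.19, Abcb10, which acts in haem synthesis, by -0.02 and Abcb8 by 0.01. None of these 3 passed in either fit. Abcb9, a lysosomal peptide transporter related to TAP, read 7.43, 7.63 and 7.65 in controls and 7.81, 7.78 and 7.92 with TNF. Its groups were apart, but the difference of 0.26 (SE 0.11) passed in neither fit (limma adjusted p = 0.255, and 0.063 with the block).

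Of the 4 soluble members 1 rose without the block (against 3.87% of all genes tested), 2 were higher with it (against 9.73%) and 0 were lower. Abcf2, a cytosolic relative of translation factors, read 9.35, 9.54 and 9.55 in controls and 9.88, 9.97 and 10.21 with TNF. The groups did not overlap, and the increase was 1.46-fold (0.54 on the log2 scale, SE 0.13, limma adjusted p = 0.044). Leaving out any single array ended the call (0.0631 to 0.163), as did leaving out replicate 3 (0.12) and quantile normalization (0.0609). Abcf3 read 9.18, 8.89 and 9.09 and then 9.42, 9.36 and 9.35, again with the groups apart, and its difference of 0.32 (SE 0.12) passed only with the block (limma adjusted p = 0.0348, against 0.17).

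Abcf1, which binds initiation factor eIF2 and ribosomes, read 8.98, 8.92 and 8.86 in controls and 9.11, 9.20 and 9.14 with TNF. The groups did not overlap, and the difference of 0.23 (SE 0.10) passed in neither fit (limma adjusted p = 0.278, and 0.09 with the block). Abce1, which splits ribosomes for recycling, read 10.62, 11.12 and 10.66 and then 10.69, 11.05 and 10.65. Replicate 2 was highest in both groups, and the groups coincided, with an interval of the difference from -0.41 to 0.41.

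Genes that work with these proteins were read from lists of 166 measured genes in 9 groups. For comparison with the counts in each list, 3.87% of all genes tested rose and 3.33% fell without the block. With the block 9.73% were higher and 11.8% lower. At an unadjusted p under 0.05 in limma without the block, 1824 of the 19926 genes tested were higher and 1938 lower. TAP, the peptide transporter that feeds antigen presentation, is an ABC protein whose genes carry other symbols and so are no members. Tap1 read 8.50, 8.79 and 8.82 in controls and 10.88, 11.25 and 11.12 with TNF (5.2-fold, limma adjusted p = 1.17e-04), and Tap2 8.98, 8.74 and 9.10 and then 10.91, 11.05 and 10.93 (4.07-fold). In the list of TAP and peptide loading genes 11 of 15 rose and 0 fell, with a median difference of 1.70; 13 were higher with the block, and 10 or 11 rose in each fit without 1 array. The 4 genes of that list with the smallest p were Psmb8, Psmb10, Psmb9 and Tapbp. They rose by 3.82, 3.01, 2.73 and 2.16 on the log2 scale. Cftr, the chloride channel of the C family, differed by -0.01, with values of 4.45 to 4.86 that may lie near background.

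**Figure D5:**
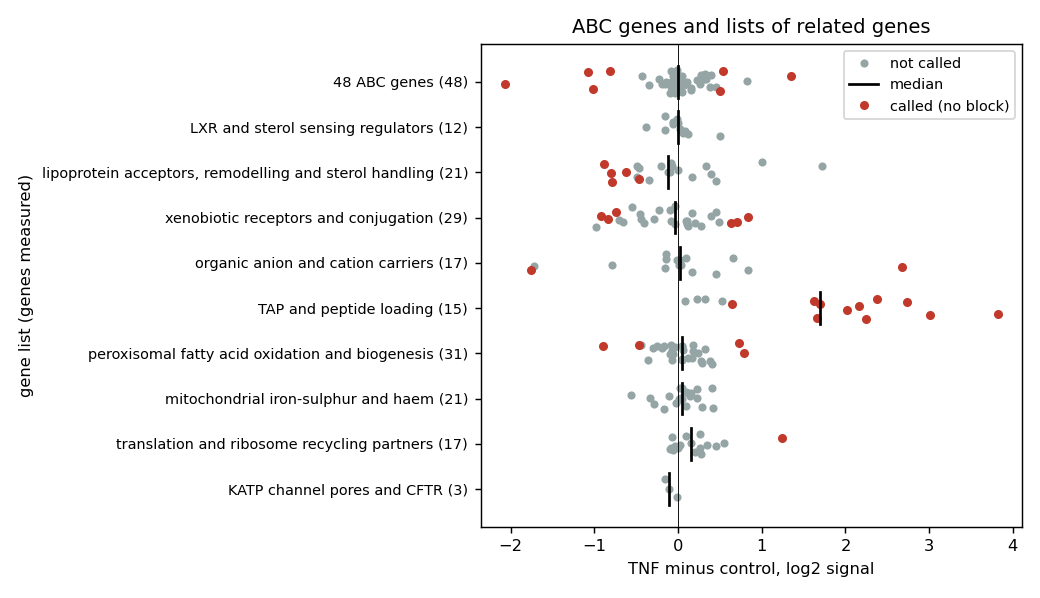
Log2 difference (TNF minus control, x axis) of the 48 ABC genes and of 9 lists of related genes (y axis, number measured in brackets); each point is a gene, red points were called by limma without the block, and black bars are medians. The median of the TAP and peptide loading list is 1.70, and those of the other 8 lists lie between -0.12 and 0.15; the vertical scatter within a list has no meaning.

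Among regulators of sterol-responsive transporters 0 of 12 passed without the block, and at an unadjusted p under 0.05 there was 1 higher and 1 lower. Nr1h2 was not analysed here. The pair were Nr1h3, the liver X receptor alpha that drives Abca1 and Abcg1, at 0.50 (limma adjusted p = 0.176, and 0.00612 with the block) and the coactivator Ncoa1 at -0.38 (adjusted p = 0.0723, and 0.0158 with the block). In lipoprotein and sterol handling 5 of 21 fell and 0 rose: Osbpl1a, an oxysterol-binding protein relative, at -0.88, the lysosomal lipase Lipa at -0.80, the lipoprotein lipase Lpl at -0.79, the cholesterol hydroxylase Cyp46a1 at -0.62 and the lysosomal cholesterol exporter Npc1 at -0.46. With the block 9 were lower and 4 higher, and leaving out an array left 1 (without TNF 2) to 3 lower; 1 was lower without replicate 3. Apoe, the acceptor of cholesterol from Abca1, differed by -0.20 (13.43 ± 0.14 and 13.23 ± 0.08, SD, n = 3, limma adjusted p = 0.455).

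Of 29 genes of conjugation and xenobiotic sensing 3 rose and 3 fell. Ahr, the aryl hydrocarbon receptor, rose by 0.84, Ggt7, a gamma-glutamyl transferase relative, by 0.71 and Keap1, the inhibitor of Nrf2, by 0.63. Gstm7 and Gstk1, glutathione transferases, fell by 0.92 and 0.83, and Gclm, a subunit of the enzyme that starts glutathione synthesis, fell by 0.74 (limma adjusted p = 0.0114). With the block 5 were higher and 10 lower, 4 and 6 under array weights, and 3 and 5 where the variance model was robust with a trend; without replicate 3 there was 1 of each. Without control 1, control 2 or TNF 2 the list had 0 higher (1 without control 3 or TNF 1), and without control 1 it had 1 lower. Among organic ion carriers, which work beside ABC pumps at barriers, 1 of 17 rose and 1 fell: the prostaglandin carrier Slco2a1 by 2.67 (6.36-fold, limma adjusted p = 1.23e-04) and the organic anion carrier Slco1a4, which fell by 1.75 (3.37-fold lower, adjusted p = 0.00391). With the block 4 carriers were higher and 3 lower, and with quantile normalization 3 and 2.

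In the peroxisomal list 2 of 31 rose and 2 fell. Acaa1a, a thiolase of beta-oxidation, rose by 0.79 and Pex16, which inserts peroxisomal membrane proteins, by 0.73. Acsl6, an acyl-CoA synthetase of brain, fell by 0.90 (limma adjusted p = 0.00359) and Cat, catalase, by 0.46. Each fit that leaves out an array had 1 lower, and those without TNF 2 or without replicate 3 had 0 higher; with the block 6 were higher and 4 lower. Of 21 mitochondrial iron-sulphur and haem genes 0 passed without the block (3 higher and 1 lower at an unadjusted p under 0.05), and with it 3 were higher and 3 lower. In translation, Eif2ak2, the double-stranded RNA sensor PKR, rose by 1.24 and was the only call among 17 partners. The list had 5 higher with the block, 3 with quantile normalization or array weights, 2 without TNF 3 or without dim genes and 0 without replicate 3 in both groups.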

How the data were processed

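The authors deposited log2 signals for 35544 probe sets of 6 arrays. RMA, which subtracts background, equalises quantiles and summarises probes, and limma are named in the submitters' processing notes, with versions not given in the sources used here. RMA compresses large folds. Platform annotation gave 21777 probe sets exactly 1 symbol, and the probe set of highest mean was kept for each of 19926 genes (only Abcb5 among the members had a choice). Groups were compared by moderated linear models (limma 3.58.1, R 4.3.3; two-sided, Benjamini-Hochberg over all genes, adjusted p under 0.05) without a block; the script was checked on simulated data. Control and TNF samples with the same number deviated together (r = 0.55, 0.65 and 0.75 for numbers 1 to 3), so the numbers pair the samples by their values; blocked results are given beside the members and lists whose calls they change. Members, roles, related lists and markers were chosen with earlier results of these data known. Per-array values are given for members called in either fit, members with an absolute log2 difference of at least 0.5 and the 3 of highest mean signal; values for Abca6, Abcb9, Abcf1, Abcg2 and Abcg4 were added after seeing them. Of the related lists, members called were named, up to 4 with the smallest p, with a few fixed genes. Ncoa1, the flanking genes and, outside the TAP and peptide loading list, the other called genes were added likewise. The remaining called genes of the TAP and peptide loading list are not named. Promoter windows came from RefSeq (GRCm38.p6). Alternatives were other centring, quantile normalization, a filter on dim genes, trend and robust variance, array weights, another probe set, all probe sets, adjusted p under 0.01, each array left out and, added after seeing the data, replicate 3 left out of both groups.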

Additional observations from a re-analysis of the deposited data

How the results depend on the processing

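With 3 arrays per group the number of arrays limits the precision. Of the members called, 3 were higher and 4 lower; without 1 array there were 1 to 2 higher and 1 to 3 lower, without replicate 3 in both groups 1 and 2, and at an adjusted p under 0.01 there was 1 of each. Quantile normalization left 1 higher, and the replicate block gave 11 higher and 5 lower. The median difference of the members, 0.001, ran from -0.044 without TNF 3 to 0.064 without control 3. Over the related lists together 18 genes were higher and 11 lower; the replicate block gave 41 and 30, leaving out 1 array 12 to 18 and 5 to 8, leaving out replicate 3 gave 13 and 4, and an adjusted p under 0.01 gave 12 and 3. The remaining settings kept these counts within 1.5 times. Among the 19 members whose per-array values were given by the stated rule, sign changes under these settings touched only Abca1, Abca3 and Abce1. No fit called those genes. Signs of Abca6, Abcb9, Abcf1, Abcg2 and Abcg4, whose values were added later, were not counted here. Among the members the block added the 9 calls given and changed no other. The cause of each lost call was not tested.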

Other observations

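Abcc12 was also read against its neighbours, as the ABCA6-like row was. The nearest protein-coding genes in RefSeq order, Phkb on one side and Lonp2 on the other, differed by -0.34 (SE 0.13, limma adjusted p = 0.193, and 0.0358 with the replicate block) and -0.06. Siah1a, beyond Lonp2, differed by -0.22. N4bp1, a regulator of NF-kB signalling 1 gene farther, rose by 0.54 (SE 0.13, limma adjusted p = 0.0416), and Dnaja2, 4 genes away on the side of Phkb, differed by 0.63 and passed only with the block (adjusted p = 0.005, against 0.081). Neither gene next to Abcc12 was higher with TNF. The promoter window of Abcc12 is printed as a companion to those of the row, from the same source, with its single match, the CCAAT box read on the other strand as ATTGG, in capitals.
Abcc12 (chr8:86566541-86566840, minus strand): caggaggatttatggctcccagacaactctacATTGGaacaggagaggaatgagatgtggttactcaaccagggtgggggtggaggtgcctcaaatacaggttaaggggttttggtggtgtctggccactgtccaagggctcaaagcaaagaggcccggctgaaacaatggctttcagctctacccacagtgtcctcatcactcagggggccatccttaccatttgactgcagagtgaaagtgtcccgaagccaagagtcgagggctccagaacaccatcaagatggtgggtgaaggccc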
